A study of Rattus norvegicus with 6 samples.

Results

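The transcripts of 10 chemokine ligand genes were examined in endothelial cells from the livers of rats. The genes were Ccl2, Ccl3, Ccl4, Ccl5, Ccl20, Cxcl1, Cxcl2, Cxcl9, Cxcl10 and Cxcl12, out of 10411 genes named on the array. A probe set, the group of oligonucleotides that reports 1 transcript, was taken where 1 of these was its only gene symbol, whatever its brightness. This gave 12 probe sets, 3 of them for Cxcl12 and 1 for each other gene. The study set 3 arrays of cells from control Wistar rats against 3 arrays from Wistar rats made cirrhotic, described as adult males. Cells were freed with collagenase, enriched by centrifugation and captured on magnetic beads carrying antibodies. The sources used here do not give the agent that caused cirrhosis, the age of the rats, the sex of the controls, the antibody's target or the number of rats behind an array. A p-value therefore speaks only of the spread among these 6 arrays, which may be partly technical.

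Chemokines are small secreted proteins that steer white blood cells along a gradient. They fall mainly into CC and CXC families, named after the spacing of their first cysteines, and each family signals through its own G protein-coupled receptors. In the liver, sinusoidal endothelium displays chemokines on its surface heparan sulphate to passing blood cells, and Kupffer cells, stellate cells, hepatocytes, bile duct cells and lymphocytes make chemokines as well. Inflammatory cytokines acting through NF-kB induce many of them, and interferon gamma induces Cxcl9 and Cxcl10.

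Signals are the deposited intensity values on a linear scale, given per array in the order 1, 2, 3. Differences are cirrhotic minus control on the log2(signal + 16) scale, with a standard error (SE) and n = 3 arrays per group. A difference passed when limma's moderated test gave an adjusted p under 0.05 over 9519 probe sets bright enough to be tested. Arrays were comparable in their median signal, 177.7 to 200.9, and 13 measured endothelial markers were above the bacterial control probe sets, which report no rat transcript, on at least 1 array each. The summed signal of these markers was 53823 to 58427.5 in control and 26039 to 28926 in cirrhotic arrays (two-sided exact permutation p = 0.1, the smallest that 3 against 3 arrays allow). Of the 13, 12 were called lower, beside 13.2% of all tested probe sets, and the median difference of the 13 was -1.12. The marker not called, Vwf, was higher in cirrhotic arrays (0.79, adjusted p = 0.0573). On all 6 arrays the 12 chemokine probe sets lay above the highest bacterial control, which read 21.7 to 49.9.

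Cxcl9 and Cxcl10 fell in cells from cirrhotic livers, while the CC ligands and the neutrophil attractants Cxcl1 and Cxcl2 did not pass the test. 1 of the 3 Cxcl12 probe sets rose. The passing probe sets were thus 3 of 11 tested (27.3%), beside 25.4% of all tested probe sets, so a call was about as frequent among chemokine ligands as on the array as a whole. Of the 3, 2 were lower and 1 higher, beside 13.2% lower and 12.3% higher over the array. The groups did not overlap for 3 of the 11 (Ccl2, Cxcl9 and Cxcl10), beside 44.9% of all tested probe sets. Counting each gene once by its brightest probe set, 2 of 9 genes passed (22.2%). The median difference was -0.16 for the 11 probe sets and -0.02 for all tested. Ccl20 was the only member too dim for the test.

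**Figure D1:**
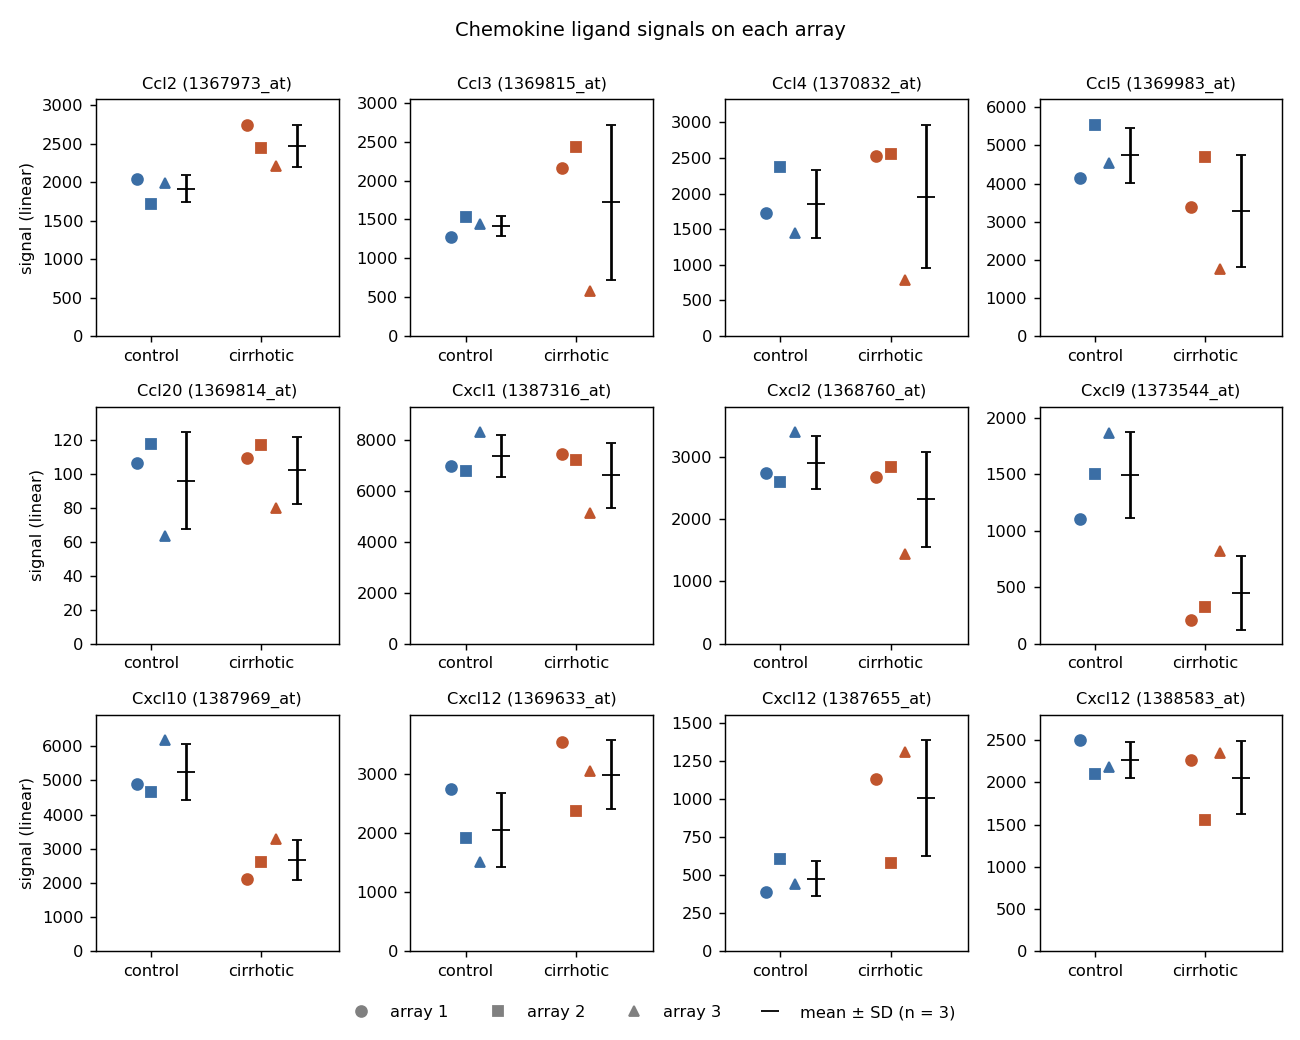
Signal on a linear scale (vertical axis) of each of the 12 chemokine ligand probe sets on the 3 control (blue) and 3 cirrhotic (orange) arrays, with symbols for the array number and black bars for mean ± SD. The groups are apart for Ccl2, Cxcl9 and Cxcl10, and cirrhotic array 3 is the lowest of the cirrhotic arrays for the CC ligands, Cxcl1 and Cxcl2.

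The largest difference among the ligands was that of Cxcl9, a ligand of the receptor Cxcr3 that attracts activated T cells and is induced chiefly by interferon gamma. Its signals were 1102.4, 1501.8 and 1863.6 on the control arrays and 207.2, 323.5 and 819.7 on the cirrhotic arrays. Every cirrhotic signal lay below every control signal, but cirrhotic array 3 stood nearer to the controls than the others did. Cxcl9 fell by 1.88 (SE 0.44, 95% interval -2.91 to -0.86, adjusted p = 0.0185), a 3.69-fold lower level on this scale. It no longer passed when control array 2 (adjusted p = 0.0583), control array 3 (0.0752) or cirrhotic array 1 (0.0557) was left out. Without cirrhotic array 3 the difference was -2.42 (adjusted p = 0.000986).

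Cxcl10, the interferon-inducible ligand of the same receptor, fell with a smaller spread. Its control signals were 4889.1, 4670 and 6184.5, and its cirrhotic signals 2119.4, 2620.9 and 3279.6. The groups were clearly apart, with the highest cirrhotic array well under the lowest control. Cxcl10 fell by 0.98 (SE 0.18, 95% interval -1.39 to -0.57, adjusted p = 0.0069), a 1.97-fold lower level. This call held without any 1 array, with differences from -1.14 to -0.83. The 13 endothelial markers had a median difference of -1.12, and whether Cxcl9 and Cxcl10 fell apart from them was not tested. In both groups, array 3 gave the highest signal of Cxcl9 and of Cxcl10.

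Both genes lie on rat chromosome 14, and so do Cxcl1 and Cxcl2, which did not pass. Their upstream sequences are shown because NF-kB induces many chemokines and interferon gamma induces Cxcl9 and Cxcl10. Any link between these sequences and which genes passed was not tested. The set of RefSeq promoters used here (build GRCr8) held 6 of the 10 genes: Ccl20, Cxcl1, Cxcl2, Cxcl9, Cxcl10 and Cxcl12. Ccl2, Ccl3, Ccl4 and Ccl5, annotated on chromosome 10, were not in that set. The 250 bases before the annotated start are printed on the gene's strand, 5′ to 3′, with matches in capitals. They are chr14:16006916-16007165 (+ strand) for Cxcl9, chr14:15988816-15989065 (+ strand) for Cxcl10, chr14:17479322-17479571 (- strand) for Cxcl1 and chr14:17467256-17467505 (- strand) for Cxcl2.
Cxcl9: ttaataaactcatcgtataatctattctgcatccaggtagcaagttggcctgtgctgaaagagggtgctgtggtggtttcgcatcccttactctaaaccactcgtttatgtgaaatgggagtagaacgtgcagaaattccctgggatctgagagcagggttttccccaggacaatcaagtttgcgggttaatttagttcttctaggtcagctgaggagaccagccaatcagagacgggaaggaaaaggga
Cxcl10: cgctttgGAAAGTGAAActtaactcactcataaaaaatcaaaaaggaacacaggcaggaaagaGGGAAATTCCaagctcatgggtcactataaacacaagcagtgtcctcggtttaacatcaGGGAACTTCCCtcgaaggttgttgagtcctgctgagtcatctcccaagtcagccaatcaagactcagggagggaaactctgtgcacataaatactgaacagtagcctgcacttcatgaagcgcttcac
Cxcl1: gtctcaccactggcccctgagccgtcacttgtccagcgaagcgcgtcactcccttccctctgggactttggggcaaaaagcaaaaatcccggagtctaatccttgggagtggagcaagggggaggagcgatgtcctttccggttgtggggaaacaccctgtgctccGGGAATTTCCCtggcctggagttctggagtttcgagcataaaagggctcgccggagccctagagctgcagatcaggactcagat
Cxcl2: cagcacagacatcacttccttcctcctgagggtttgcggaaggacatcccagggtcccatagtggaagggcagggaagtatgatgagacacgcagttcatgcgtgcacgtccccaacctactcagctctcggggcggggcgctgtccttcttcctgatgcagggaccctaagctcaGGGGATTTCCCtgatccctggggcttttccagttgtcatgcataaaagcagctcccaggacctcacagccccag
Matches were sought on both strands to the kappaB motif of NF-kB, to the half-site TTTC of interferon response elements repeated after a gap of 2 bases, and to TTCNNNGAA, the STAT motif. Cxcl10 held the interferon motif on the reverse strand, from base 243 to base 234 before the start, and kappaB matches at bases 187 to 178 and 128 to 118, the latter made of overlapping matches on both strands. Cxcl1 held overlapping kappaB matches at bases 84 to 74, Cxcl2 at bases 74 to 64, and Ccl20 a single match at bases 89 to 80. For Cxcl9 and Cxcl12 these letters are not in this window. Over 33469 promoters cut to the same 250 bases, 6.33% held the kappaB motif, 3.41% the interferon motif and 7.67% the STAT motif.

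Ccl2, which draws monocytes through the receptor Ccr2, had signals of 2040.7, 1715.7 and 1989.4 in control and 2749.1, 2449 and 2215.9 in cirrhotic arrays. Each cirrhotic signal was above each control signal, but the step was small. The difference of 0.36 (SE 0.13, 95% interval 0.07 to 0.66) did not pass (adjusted p = 0.0742). It passed without cirrhotic array 3 (0.44, adjusted p = 0.0447).

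Ccl3 and Ccl4 encode the macrophage inflammatory proteins, which attract monocytes and T cells. Ccl3 had signals of 1269.3, 1531.6 and 1441 in control and 2161.5, 2425.9 and 581.6 in cirrhotic arrays. Ccl4 had signals of 1726.8, 2379 and 1452.5 in control and 2526.3, 2556.9 and 792.6 in cirrhotic arrays. For both, cirrhotic arrays 1 and 2 were above every control array and cirrhotic array 3 was below every one. The difference of Ccl3 was 0.04 (SE 0.48, 95% interval -1.06 to 1.15, adjusted p = 0.959) with all arrays, -0.03 with median centring and 0.69 (adjusted p = 0.00991) without cirrhotic array 3. The difference of Ccl4 was -0.07 (SE 0.43, 95% interval -1.07 to 0.93, adjusted p = 0.923) with all arrays and 0.48 (adjusted p = 0.118) without cirrhotic array 3.

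Ccl5, the T cell and monocyte attractant also called RANTES, had signals of 4144.3, 5546.4 and 4531.4 in control and 3387.2, 4694 and 1761 in cirrhotic arrays. The groups overlapped because cirrhotic array 2 lay among the controls. Its difference of -0.63 (SE 0.32, 95% interval -1.37 to 0.11) did not pass (adjusted p = 0.183), and depended on the arrays kept. Without cirrhotic array 3 it was -0.24 (adjusted p = 0.355), and without cirrhotic array 2 it passed at -0.94 (adjusted p = 0.0408). Ccl20, the ligand of Ccr6, had low signals of 106.6, 117.5 and 63.4 in control and 109.3, 117.2 and 79.8 in cirrhotic arrays. In the fit without a filter on dim probe sets, where 15.5% of 15866 probe sets passed, its difference was 0.10 (SE 0.26, adjusted p = 0.839).

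Cxcl1 and Cxcl2 attract neutrophils through Cxcr2. Cxcl1 had signals of 6971, 6792 and 8300.2 in control and 7459.8, 7216.6 and 5146.4 in cirrhotic arrays. Cxcl2 had signals of 2740.1, 2593.4 and 3396.1 in control and 2670.7, 2842.7 and 1434.7 in cirrhotic arrays. Cirrhotic arrays 1 and 2 lay within the control range for both genes, and cirrhotic array 3 lay under it. The differences were -0.17 for Cxcl1 (SE 0.16, 95% interval -0.53 to 0.19, adjusted p = 0.46) and -0.38 for Cxcl2 (SE 0.26, 95% interval -0.97 to 0.21, adjusted p = 0.307). Without cirrhotic array 3 they were 0.0024 and -0.07.

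**Figure D2:**
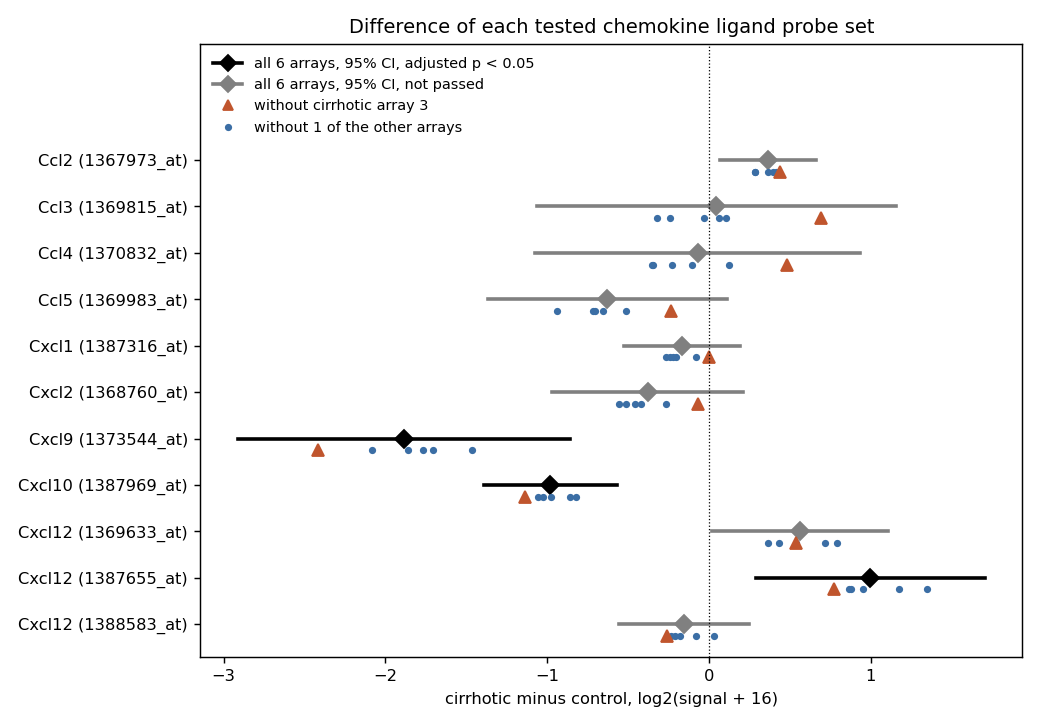
Difference between cirrhotic and control arrays on the log2(signal + 16) scale (horizontal axis) for the 11 tested probe sets, with bars for the 95% interval and black for those that passed, blue points for the value without 1 of the other arrays and orange triangles for the value without cirrhotic array 3. Cxcl9 and Cxcl10 are left of 0 in every setting, and the triangle of Ccl3 lies at 0.69 against 0.04 with all arrays.

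Cxcl12, the ligand of Cxcr4 and of the scavenging receptor Ackr3, was measured by 3 probe sets, of which 1 rose. Probe set 1387655_at had signals of 387.6, 604.5 and 441.3 in control and 1131.5, 581.9 and 1312.8 in cirrhotic arrays. Cirrhotic arrays 1 and 3 were high and cirrhotic array 2 lay within the controls. It rose by 1.00 (SE 0.31, 95% interval 0.29 to 1.71, adjusted p = 0.0476), just past the threshold. It did not pass with control array 1, 2 or 3 left out (adjusted p = 0.138, 0.0572 and 0.137), nor with cirrhotic array 1 (0.151) or 3 (0.0983) left out, nor without a filter on dim probe sets (0.0705). Probe set 1369633_at had signals of 2732.1, 1910 and 1502.5 in control and 3533.8, 2368.5 and 3042.5 in cirrhotic arrays, with control array 1 among the cirrhotic values. Its difference of 0.56 (SE 0.23, 95% interval 0.02 to 1.10) did not pass (adjusted p = 0.114), and passed without control array 1 (0.79, adjusted p = 0.0417). Probe set 1388583_at had signals of 2504, 2100.5 and 2182 in control and 2261.3, 1558.9 and 2344.3 in cirrhotic arrays, with overlapping groups. Its difference was -0.16 (SE 0.17, 95% interval -0.56 to 0.25, adjusted p = 0.544).

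Within each array, the log2 ratio of 1387655_at to 1388583_at was higher in cirrhotic than in control arrays by 1.15, and that of 1369633_at to 1388583_at by 0.72, with no overlap between groups for either. An exact permutation test gave a two-sided p = 0.1 for each, the smallest possible, and p = 0.15 when adjusted over the 3 pairs of probe sets. For 1369633_at to 1387655_at the difference was -0.44 (exact permutation p = 0.4). The sources used here do not say which transcript form each probe set reads.

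The CC ligands and the neutrophil attractants shared their lowest cirrhotic signal. All 7 of their probe sets were lowest on cirrhotic array 3 among the cirrhotic arrays, and none of the 5 probe sets of Cxcl9, Cxcl10 and Cxcl12 was. The gap between cirrhotic array 3 and the mean of cirrhotic arrays 1 and 2 was -1.95 for Ccl3, -1.66 for Ccl4, -1.17 for Ccl5, -0.93 for Cxcl2, -0.51 for Cxcl1, -0.43 for Ccl20 and -0.23 for Ccl2. It was 1.60 for Cxcl9 and 0.47 for Cxcl10, and between 0.07 and 0.68 for the Cxcl12 probe sets. Over all tested probe sets the median gap was -0.02, and 38.8% were lowest on that array.

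Markers of other cells moved on the same array. Cirrhotic array 3 was the lowest cirrhotic array for 11 of 11 tested macrophage markers (median gap -1.05), 13 of 14 T and NK cell markers (-0.96) and 9 of 9 bile duct cell markers (-1.41), and for 0 of 17 hepatocyte markers (0.86). The median gap was 0.11 for endothelial and 0.17 for stellate cell and myofibroblast markers. The summed macrophage signal was 6318 to 11697 in control and 6971 to 15884 in cirrhotic arrays (12 genes, two-sided exact permutation p = 0.3), and that of T and NK cells 5008 to 7015 and 5182 to 9948 (16 genes, p = 0.3). Of the tested markers, 2 of 11 for macrophages were called higher and 1 lower, and 7 of 14 on the joint T and NK cell list higher. Over all tested probe sets 12.3% were called higher and 13.2% lower. The joint list was mixed in sign. Of its genes singled out after their values were seen, Cd2 (1.54) and Lck (0.52) were called higher. Prf1 (-0.91) and Klrd1 (-0.65) were lower but did not pass (adjusted p = 0.0622 and 0.252 in limma). Bile duct cell markers summed to 882 to 1677 in control and 5131 to 11988 in cirrhotic arrays (11 genes, exact permutation p = 0.1), with 6 of 9 tested called higher. Mast cell markers summed to 643 to 923 and 1260 to 4289 (6 genes, exact permutation p = 0.1), with 3 of 4 tested called higher and 1 lower. The summed neutrophil marker signal was 83.8 to 168.5 and 553.8 to 2866 (3 genes of 9 listed, exact permutation p = 0.1). Only 1 of the 3 was bright enough to be tested, and it was called higher. Hepatocyte markers summed to 35955 to 51593 in control and 44730 to 83944 in cirrhotic arrays (17 genes, exact permutation p = 0.2). Of these 17, all tested, 8 were called higher and 1 lower. No marker of these lists lay within the bacterial controls on all arrays. In RNA of mixed cells, fewer cells of a type and less RNA per cell cannot be told apart, and the part of these cells in the chemokine signals was not tested.

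**Figure D3:**
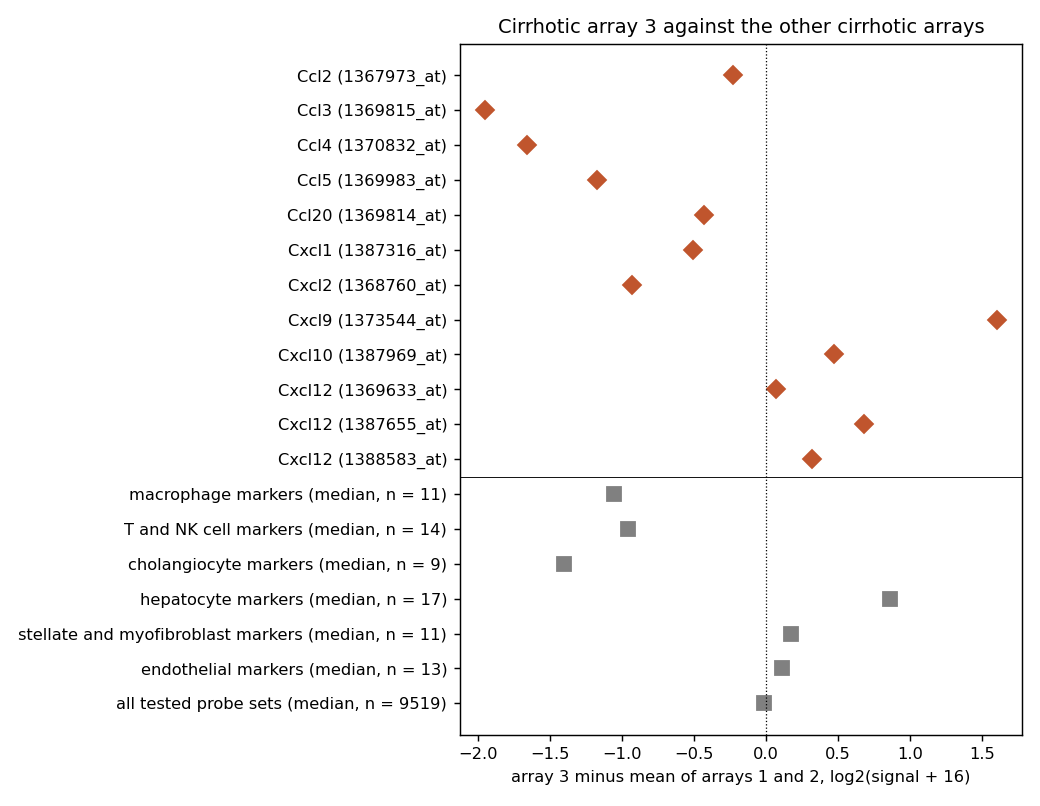
Signal on cirrhotic array 3 minus the mean of cirrhotic arrays 1 and 2 on the log2(signal + 16) scale (horizontal axis), for each chemokine ligand probe set (orange diamonds) and as medians over marker lists and over all tested probe sets (gray squares). Ccl3 at -1.95 and Ccl4 at -1.66 lie on the side of the macrophage (-1.05), T and NK cell (-0.96) and bile duct cell (-1.41) medians. Cxcl9 at 1.60 lies on the side of the hepatocyte (0.86), endothelial (0.11) and stellate cell and myofibroblast (0.17) medians.

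Measured receptors of the members included Ccr1, Ccr2, Ccr3, Cxcr2, Cxcr3, Cxcr4, Ackr2 and Ackr3. Cxcr4, through which Cxcl12 acts on lymphocytes, progenitor cells and endothelium, rose on each of its 3 probe sets. On the brightest, its signals were 629.6, 1221.5 and 817.3 in control and 3182.3, 4046.4 and 2013.5 in cirrhotic arrays, with the groups well apart. It rose by 1.77 (SE 0.30, adjusted p = 0.00558), and by 1.79 and 1.74 on the other probe sets. The scavenger Ackr3, by contrast, had overlapping signals of 2284.9, 2824.6 and 2128.4 in control and 1834.5, 2307.1 and 1796.7 in cirrhotic arrays and did not pass (-0.28, SE 0.15, adjusted p = 0.214).

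Cxcr3, the receptor of Cxcl9 and Cxcl10 on T and NK cells, had signals of 195.6, 286.8 and 178.4 in control and 322.5, 451.5 and 257.3 in cirrhotic arrays. Its difference of 0.60 (SE 0.24, adjusted p = 0.107) was opposite in sign to those of its ligands and did not pass in the main fit. It passed without cirrhotic array 3 (0.78, adjusted p = 0.0488), but with no other array left out (0.0642 or more). With all arrays it passed under array weights (0.0276) and with a block for the array number (0.0376). Ccr1, Ccr2 and Cxcr2 were too dim for the test. The signals of Ccr1 were 57.3, 11.7 and 8.3 in control and 84.9, 87 and 74.6 in cirrhotic arrays, with no overlap (adjusted p = 0.0539 in the fit without a filter). For Ccr2 they were 37.5, 37.4 and 21.9 against 62.9, 106.9 and 52.8. All controls lay within the bacterial probe sets, and with them set at the highest of these the cirrhotic mean was 1.53-fold higher. That fold carries no standard error, and Ccr2 did not pass in the limma fit without a filter (adjusted p = 0.0714). The signals of Cxcr2 were 31.1, 59.1 and 51.7 against 47.7, 26 and 44.1. Ccr3, a receptor of Ccl5, and Ackr2, a scavenger of inflammatory CC ligands, were added after their values were seen. The signals of Ccr3, too dim for the test, were 56.6, 90.9 and 62.4 in control and 59.9, 88.5 and 69.9 in cirrhotic arrays. Those of Ackr2 were 155.8, 239 and 177 against 150.9, 188 and 232.7, a difference of 0.0007 (SE 0.21, 95% interval -0.49 to 0.50, adjusted p = 0.998). The groups overlapped for both. Over the receptor list, 12 of 23 genes were measured and 5 tested (median difference 0.0007, beside -0.02 over the array). Of these Cxcr4 alone passed (20%, beside 25.4% of all tested probe sets). Without a filter Ccr4, a chemokine receptor of T cells singled out here after its values were seen, passed too (1.24, adjusted p = 0.0267). Its signals were low, 35, 71 and 34.7 in control and 129, 162 and 98.1 in cirrhotic arrays, with control array 1 within the bacterial probe sets.

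**Figure D4:**
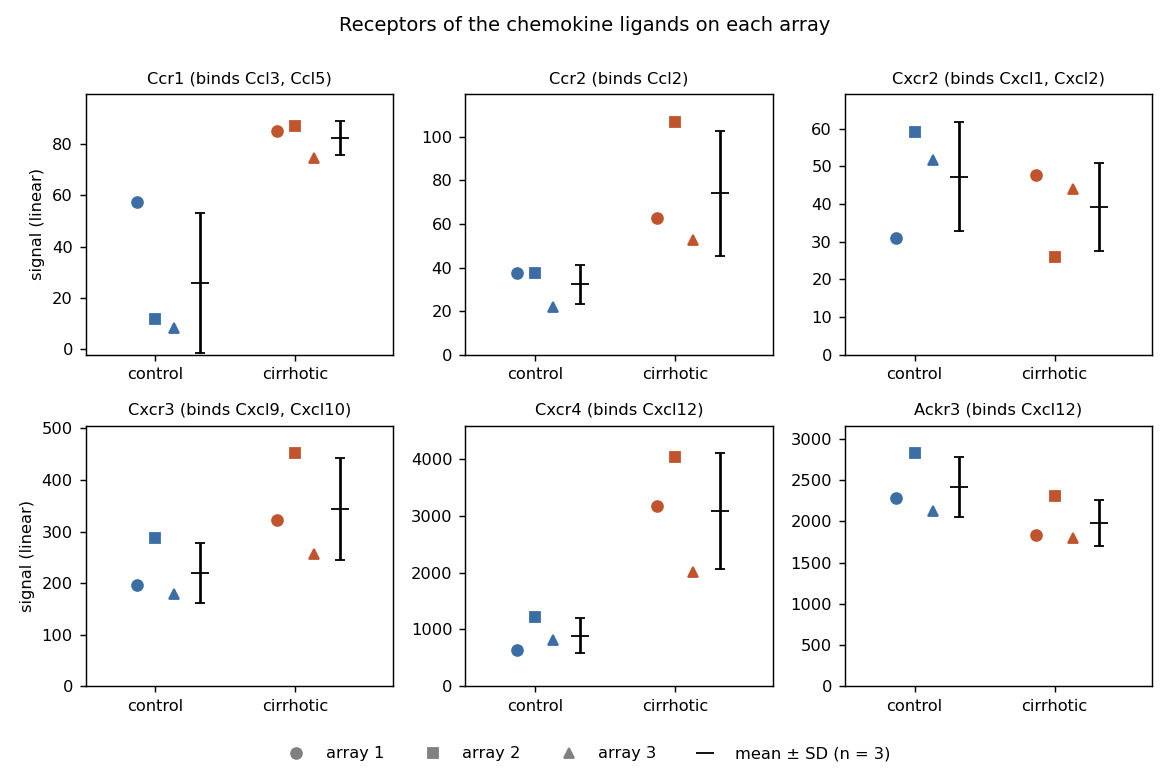
Signal on a linear scale (vertical axis) of 6 receptors of the chemokine ligands on the 3 control (blue) and 3 cirrhotic (orange) arrays, with symbols for the array number and black bars for mean ± SD. Cxcr4 is higher on every cirrhotic array, from 2013.5 to 4046.4 against 629.6 to 1221.5, while Ccr1, Ccr2 and Cxcr2 stay near the bacterial controls of 21.7 to 49.9 on several arrays.

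Among 26 further chemokine ligands 15 were measured and 6 tested (median difference 0.40), and 1 passed (16.7%, beside 25.4% of all tested probe sets). This was Cxcl14, a ligand with no settled receptor, whose signals were 282.4, 273.2 and 168.8 in control and 412.2, 331.5 and 606.5 in cirrhotic arrays. It rose by 0.85 (SE 0.26, adjusted p = 0.0496), but the call held only without cirrhotic array 2 among the arrays left out (otherwise adjusted p from 0.0693 to 0.151) and was lost without a filter (0.0777). Cxcl6, singled out here after its values were seen, was too dim for the test. In the limma fit without a filter it passed (1.64, SE 0.43, adjusted p = 0.042). Its signals were 31.6, 41.5 and 7.1 in control, all within the bacterial probe sets, and 150.3, 137.2 and 58.6 in cirrhotic arrays.

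Of 16 tested genes for cytokines that induce chemokines and for their receptors, 3 were higher and 3 lower (37.5% called, median 0.24). Over all tested probe sets 25.4% were called, 12.3% higher and 13.2% lower. Il1a, the cytokine interleukin 1 alpha, fell by 1.65 (SE 0.16, adjusted p = 0.000718), from a signal of 7851 ± 423 (SD) to 2536 ± 532, and Il6st, the shared signalling chain of interleukin 6 receptors, fell by 1.09 (SE 0.11, adjusted p = 0.000719). Il6 rose by 2.15 (SE 0.40, adjusted p = 0.00716), from 63.5 ± 26.1 to 354 ± 173, and by 1.28 with the larger pseudocount of 126. Its receptor Il6r rose by 1.24 (SE 0.32, adjusted p = 0.0273), or 0.77 with that pseudocount, and no longer passed when control array 2 or 3 or cirrhotic array 1 or 2 was dropped (adjusted p from 0.0681 to 0.103). The interferon gamma gene Ifng was too dim for the test, with signals of 93.3, 207.6 and 128 in control and 122.6, 174 and 65.4 in cirrhotic arrays.

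Of 10 tested NF-kB subunits and feedback genes, 2 were higher and 1 lower (30% called, beside 25.4% of all tested probe sets, median 0.36). Birc3, an apoptosis inhibitor induced by NF-kB, rose by 1.33 (SE 0.26, adjusted p = 0.00895). The subunits Relb and Rela differed in sign, Relb rising by 0.52 (SE 0.15, adjusted p = 0.04) and Rela falling by 0.63 (SE 0.18, adjusted p = 0.0364). The call of Relb held only without cirrhotic array 3 among the arrays left out (otherwise adjusted p from 0.0874 to 0.121), and was lost with median centring (0.0785) and without a filter (0.0562). That of Rela was lost without array 1 or 3 of either group (0.0575 to 0.125).

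Of 17 tested genes of the interferon gamma response, 2 were higher and 2 lower (23.5% called, beside 25.4% of all tested probe sets, median 0.06). Irf1, a transcription factor that interferon gamma induces, fell by 0.58 (SE 0.17, adjusted p = 0.0402). This held only without cirrhotic array 2 among the arrays left out (otherwise 0.0546 to 0.141), and neither without a filter (0.0709) nor without a variance trend (0.0603). Socs3, a feedback inhibitor of cytokine receptors, fell by 0.62 (SE 0.11, adjusted p = 0.00685). The proteasome activator subunit Psme2 rose by 0.66 (SE 0.12, adjusted p = 0.00695), and the guanylate-binding protein gene Gbp2 by 0.69 (SE 0.21, adjusted p = 0.0468), the latter no longer without control array 1 or 3 or cirrhotic array 1 or 2 (0.102 to 0.131) and neither without a filter (0.0751) nor with median centring or quantile normalization (0.0577 and 0.0538).

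Of 15 tested genes that cleave chemokines or hold them on heparan sulphate, 8 were higher and 3 lower. This was 73.3% called (median 0.67), beside 25.4% of all tested probe sets. Dpp4, a peptidase that trims Cxcl9, Cxcl10 and Cxcl12, fell by 1.40 (SE 0.17, adjusted p = 0.00155), from 3480 ± 275 (SD, n = 3) to 1334 ± 325. Adam17, a sheddase of membrane-bound chemokines, fell by 0.95 (SE 0.14, adjusted p = 0.00276). Mmp2, a matrix protease that also cleaves Cxcl12, rose by 2.48 (SE 0.22, adjusted p = 0.000518), and Sdc4, a heparan sulphate proteoglycan, by 1.19 (SE 0.18, adjusted p = 0.00362). The summed signal of stellate cell and myofibroblast markers, cells that make Mmp2, was 5244 to 6016 in control and 16974 to 29170 in cirrhotic arrays (15 genes, exact permutation p = 0.1). Of these markers 8 of 11 tested were called higher, beside 12.3% of all tested probe sets. Their part in the difference of Mmp2 was not tested.

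The genes whose pattern over the 6 arrays was most like that of each passing ligand were picked by Pearson's correlation of log2 values. For Cxcl10 these were Adgrl4, an adhesion receptor of endothelium (r = 0.999), Mroh7 (0.995) and Wasl (0.995). Adgrl4 had signals of 2974, 2803.1 and 3479.3 in control and 1323.7, 1627.8 and 2001.7 in cirrhotic arrays, ordered over the 6 arrays as those of Cxcl10 were. For Cxcl9 they were Zmynd11 (0.993), Kansl3 (0.992) and Tbcel (0.991), and for Cxcl12 probe set 1387655_at the thymidine kinase gene Tk1 (0.996), the securin gene Pttg1 (0.990) and Gucy1a1 (0.987). The arrays fall into 2 groups, and 272, 96 and 59 of the 9519 probe sets correlated above 0.95 with Cxcl10, Cxcl9 and Cxcl12, so a high r describes these 6 arrays only.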

How the data were processed

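Expression was measured on 6 Affymetrix Rat Expression 230A arrays, per the labels. The deposited values are linear intensity. What software and summary method the authors used is not given in the sources used here. The mean without the lowest and highest 2% was 399.2 to 399.6 on every array, so this scaling was kept. The number of arrays limits the precision. Groups and array numbers follow the titles, and the unnumbered control array was called 1. 0 further columns were left aside.

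Values were turned into log2(signal + 16), 16 being the 10th percentile of all values. The 57 control probe sets and the dimmest 40% by mean over all arrays (6347, below a signal of about 127) were left out. Cirrhotic was compared with control in limma 3.58.1 under R 4.3.3 (lmFit, eBayes with a variance trend), and the threshold was a Benjamini-Hochberg adjusted two-sided p of 0.05 over 9519 probe sets. The test was checked on simulated data. A list used the brightest probe set of each gene. The fold of Ccr2, given without a standard error, set the dim group at the highest of 27 Bacillus control probe sets of each array.

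Symbols came from the platform annotation supplied, with gene IDs matched to the GRCr8 table for 12754 of 12783 probe sets with 1 symbol. Another 312 had several symbols and 2771 none. No probe set paired a member with another gene.

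The members and the lists were chosen with earlier results of these data known. Named genes were every member probe set, the members' receptors, up to 4 passing genes of each list by p, and 3 genes of most similar pattern for each passing member. Vwf, Ifng and the genes said to be added or singled out after their values were seen were named besides these. Alternatives were no filter and a filter at 60%, quantile normalization, median centring, pseudocounts of 1 and 126 (the 40th percentile), no variance trend, robust eBayes, array weights, a block for the array number, and leaving out each array in turn.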

Additional observations from a re-analysis of the deposited data

How the results depend on the processing

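Cxcl10 passed under all 16 alternatives, with differences from -1.18 to -0.83, and Cxcl9 under 13 of 16, with differences from -2.42 to -1.47. The Cxcl12 probe set 1387655_at lost its call in 10 of 16, among them no filter (adjusted p = 0.0705), quantile normalization (0.0516), no variance trend (0.0527) and robust eBayes (0.0542). The sign of uncalled members turned for Ccl3 with median centring (-0.034) and, with 1 array left out, ranged from -0.32 to 0.69. It turned for Ccl4 with array weights (0.34), with a range of -0.35 to 0.48, for Cxcl1 with 1 array left out (-0.26 to 0.0024) and for Cxcl12 probe set 1388583_at (-0.26 to 0.029).

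Without 1 array, 1341 to 2472 probe sets passed, against 2421, and 1 to 4 of 9 chemokine genes, against 2. The lists ranged from 0 to 2 further ligands (against 1), 1 to 2 receptors (against 1), 3 to 6 inducing genes (against 6), 1 to 3 NF-kB genes (against 3), 2 to 5 interferon genes (against 4) and 7 to 10 cleaving and presenting genes (against 11). Array weights gave 3772 probe sets, 4 chemokine genes, 3 further ligands, 2 receptors, 6 NF-kB and 8 interferon genes. Without a filter 2 receptors and 2 interferon genes passed, and with the filter at 60% 2 inducing genes. In limma, 0 of 6 further ligands passed with quantile normalization, median centring, the pseudocount of 126, no variance trend or robust eBayes, with 1 of 6 at an unadjusted p under 0.05 in each.

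Same-numbered arrays did not deviate together over all tested probe sets (correlations of 0.02, -0.01 and -0.16). These correlations cannot decide whether the number pairs samples, and the labels do not say that it does. With the number as a replicate block, 2 of 9 chemokine genes, 0 further ligands (1 at an unadjusted p under 0.05), 2 receptors and 1 NF-kB gene passed, and Cxcl12 probe set 1387655_at did not (adjusted p = 0.0874). The cause of these changes was not tested. Signal over background limits Ccl20, Cxcl6 and the receptors Ccr1, Ccr2 and Cxcr2.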
